A study of Mus musculus with 7 samples.

Results

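The genes described here encode dioxygenases that need ferrous iron and oxoglutarate. They comprise 49 of the 55855 gene identifiers in the table, namely those whose Ensembl identifier carries the symbol of a TET, JmjC, AlkB, prolyl, lysyl or asparaginyl hydroxylase gene in GENCODE mouse release M21. They were chosen by name and function, not by their values. RNA was sequenced from hematopoietic stem cells (HSCs) of the bone marrow of mice aged 2 months, in 7 libraries. The 3 control libraries are labelled Fth1fl/fl, a genotype with both copies of the ferritin heavy chain gene floxed, and the series text calls these cells wild type. The other 4 libraries are labelled Fth1△/△, with Fth1 deleted in the blood system. The series text describes the deletion as conditional. The Cre line, the exons removed, the surface markers of the sort, the sex and strain of the mice, and whether each library came from its own mouse are not given in the sources used here. The p-values below therefore measure the spread between these libraries, which may be technical.

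Enzymes of this class hold one ferrous iron in the active site and split oxygen between their substrate and oxoglutarate, releasing succinate and carbon dioxide. Their substrates include methylated cytosine in DNA, methylated lysines of histones, methylated bases of DNA and RNA, and prolines, asparagines and lysines of proteins such as HIF and collagen. Ferritin heavy chain oxidizes iron for storage in the ferritin shell, so the study's question about iron in HSCs touches the metal these enzymes use. In blood stem cells TET2 and several histone demethylases are known as regulators of self-renewal and lineage choice. RNA levels do not measure the iron loading or the activity of the enzymes.

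Fth1 was 552, 659 and 638 FPKM (fragments per kilobase of gene, scaled to library depth) in control 1 to 3 and 202, 333, 358 and 114 FPKM in Fth1-deleted 1 to 4. Every library labelled as deleted was below every control (two-sided exact permutation test over 35 splits, p = 0.0286, the smallest this design allows). In the fit across all genes its log2 difference of -1.42 (SE 0.33) had a limma adjusted p of 0.193, above the threshold of 0.05. With a term for Y-linked reads these were -1.74 (SE 0.28) and 0.0491, which is under it. Counted reads ranged from 12058392 to 15453168 per library. All 8 HSC markers used (Procr, Slamf1, Kit, Ly6a, Mecom, Hlf, Hoxa9 and Meis1) averaged at least 1 FPKM in both groups. Their summed level was 527 to 733 FPKM in Fth1-deleted libraries and 657 to 1158 FPKM in controls, with a lower mean in Fth1-deleted cells for 7 of the 8 (exact permutation p = 0.0571). Summed markers of other cell types did not pass that test either (p = 0.0571 for the 3 that follow, exact permutation). The mast cell sum ran higher in Fth1-deleted libraries (16.0 to 41.1 against 0 to 11.4 FPKM). There it was mostly Cpa3, at 16.0, 33.9, 35.7 and 21.8 FPKM, beside 6.55, 0 and 0 FPKM in controls. Mcpt8 and Prss34 were at 0 throughout, and Fcer1a was above 0 only in Fth1-deleted 2. Ms4a2 was at 4.90, 0 and 0 FPKM in controls and 0, 0, 5.45 and 1.55 FPKM in Fth1-deleted libraries. Macrophage sums also ran higher in Fth1-deleted libraries (54.6 to 124 against 19.4 to 39.3 FPKM, all 5 markers with a higher mean). For megakaryocytes the ranges were 782 to 932 against 531 to 783 FPKM, with Gp1bb at 0 and a higher mean for only 2 of the 5 markers. Erythroid, neutrophil and monocyte, B cell, T and NK cell, and endothelial and stromal sums overlapped between the groups, with exact permutation p from 0.114 to 0.83. Within them, 5 of 7 neutrophil and monocyte markers and 5 of 6 B cell markers had a higher mean in Fth1-deleted cells. Mpo was at 0.255 to 3.63 FPKM in controls and 15.4 to 135 FPKM in Fth1-deleted libraries. Vpreb1 was at 0 in controls and 4.06 to 31.8 FPKM in Fth1-deleted libraries. Ribosomal RNA genes took 1.44% to 1.57% of reads in Fth1-deleted libraries and 0.266% to 1.09% in controls (exact permutation p = 0.0286). The groups did not overlap in this share, so a fit with a term for it can hardly tell the share from the genotype. Reads of 4 Y-linked genes were present in control 2 and Fth1-deleted 1, 2 and 3 and were 0 in the other libraries. The part of these differences in the results below was not tested, except where a value with a term for them is given.

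Most members were transcribed in HSCs, and none passed the test for a difference between the genotypes. Of the 49 genes, 47 had a mean of at least 1 FPKM and were tested, with means from 3.52 to 89.2 FPKM and a median of 23.9 FPKM. Jmjd7, a lysyl hydroxylase gene, was at 0 in all 7 libraries, where 3 reads would have given at most 0.293 FPKM. Of its exon bases, 66.7% are shared on the same strand with the gene model Gm28042, and whether this sets the 0 was not tested. P4ha2 was below that filter. In the fit over 13948 genes (limma, Benjamini-Hochberg, threshold 0.05), 0 of the 47 members passed, beside 8 of all genes (0.0574%), of which 4 were higher (0.0287%) and 4 lower (0.0287%). The smallest adjusted p of a member was 0.435, for Ogfod2, and over 20 alternative settings it ranged from 0.202 to 0.684. Without adjustment, 4 members (8.51%) had a p under 0.05, beside 9.83% of all genes. These were Ogfod2, Alkbh3, Kdm6a and Alkbh2.

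The members' differences leaned to lower values in Fth1-deleted cells, by a small amount. Of the 47, 32 (68.1%) had a negative log2 difference on the log2(FPKM + 1) scale (Fth1-deleted minus control), beside 51.3% of all tested genes. Their median was -0.16, beside -0.02 for all tested genes, and -0.07 without control 2. Only Kdm5a and Ogfod1 (4.26%) had groups that did not overlap, both lower in Fth1-deleted cells, beside 9.65% of all genes (5.55% lower). In bulk RNA, fewer cells of one kind and less RNA per cell cannot be told apart. The 95% interval of the difference lay inside a 2-fold change for 22 members (46.8%), beside 31.8% of all genes. The coefficient of variation between libraries had a median of 31.3% in controls and 32.3% in Fth1-deleted libraries, while counting error alone would give 3.90%.

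**Figure D1:**
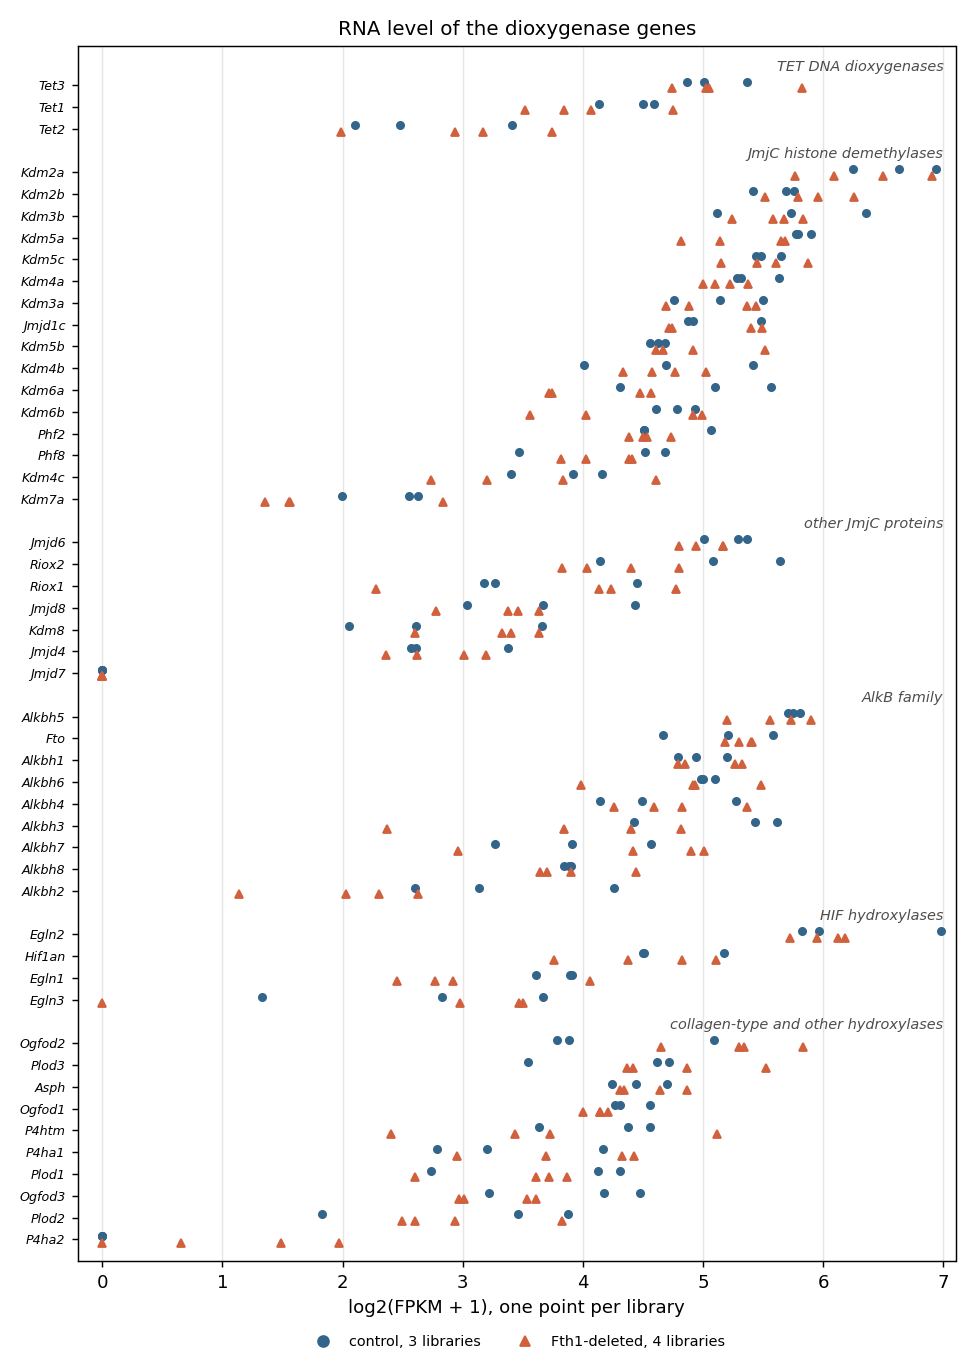
RNA level of each of the 49 genes as log2(FPKM + 1) on the horizontal axis, grouped by family and ordered by mean, with 1 circle per control library (n = 3) and 1 triangle per Fth1-deleted library (n = 4). Circles and triangles interleave for most genes, while Kdm5a and Ogfod1 have all 4 triangles left of the circles, and Jmjd7 sits at 0 throughout.

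**Figure D2:**
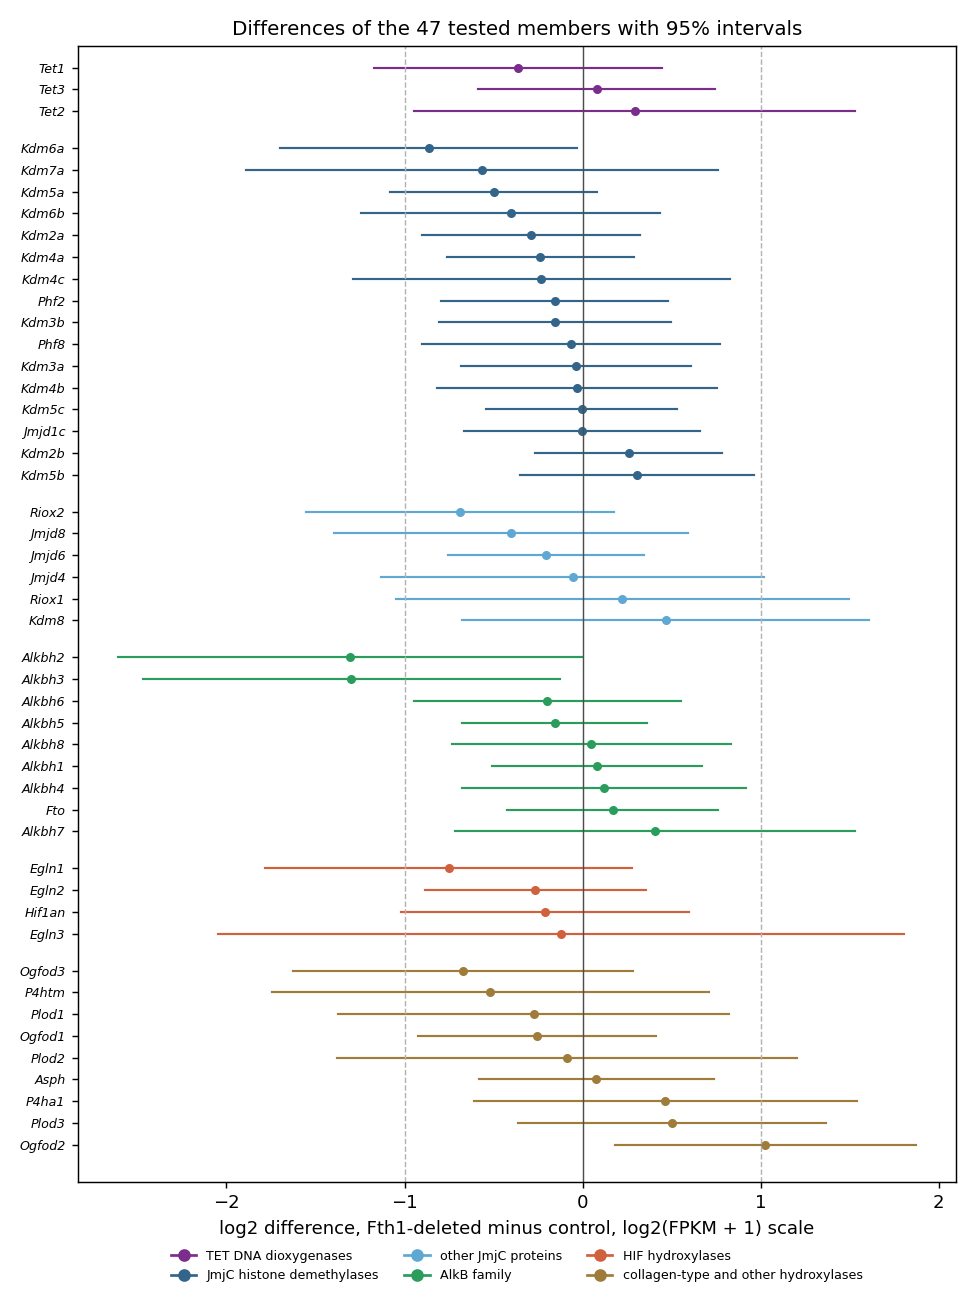
Log2 difference of the 47 tested members (Fth1-deleted minus control, log2(FPKM + 1) scale) as points, with 95% intervals from limma as bars and colours by family. Dashed lines mark a 2-fold change in each direction, and 22 of the intervals lie between them.

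The HIF hydroxylases are the oxygen sensors of the class. Egln1, Egln2 and Egln3 hydroxylate prolines of HIF alpha subunits, which marks them for the VHL ubiquitin ligase, and Hif1an hydroxylates an asparagine, which blocks coactivator binding. Egln1, Egln3, P4ha1, P4ha2 and the demethylase gene Kdm3a are also textbook targets of HIF, so their promoters are shown ahead of their values. The sequences are RefSeq windows (build GRCm38.p6) of up to 250 bases before the start site, 5′ to 3′ on the gene's strand. Capitals mark ACGTG or GCGTG, the core of the hypoxia response element, on either strand, so that CACGT and CACGC are marked too. ACGTG can overlap the E-box CACGTG, which other factors bind, and a match is a description of letters, not a binding site. The runs of Egln1 (chr8:124949325-124949504, minus strand) and Kdm3a (chr6:71632991-71633167, minus strand, the first listed of its 3 windows) stop where an annotated exon begins, and the runs of Egln3 (chr12:54203875-54204124, minus strand), P4ha1 (chr10:59323046-59323295, plus strand) and P4ha2 (chr11:54100674-54100923, plus strand) overlap no exon. The P4ha2 window lies inside the span of the gene in GENCODE M21, upstream of its RefSeq start.
Egln1: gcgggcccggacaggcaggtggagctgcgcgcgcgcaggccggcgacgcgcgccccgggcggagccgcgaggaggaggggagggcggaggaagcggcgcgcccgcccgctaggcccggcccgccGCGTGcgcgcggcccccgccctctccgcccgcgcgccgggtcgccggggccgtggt
Egln3: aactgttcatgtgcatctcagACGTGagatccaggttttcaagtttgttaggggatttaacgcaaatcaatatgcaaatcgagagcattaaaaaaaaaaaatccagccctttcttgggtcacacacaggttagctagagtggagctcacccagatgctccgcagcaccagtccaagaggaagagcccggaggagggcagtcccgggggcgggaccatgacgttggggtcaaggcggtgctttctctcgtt
P4ha1: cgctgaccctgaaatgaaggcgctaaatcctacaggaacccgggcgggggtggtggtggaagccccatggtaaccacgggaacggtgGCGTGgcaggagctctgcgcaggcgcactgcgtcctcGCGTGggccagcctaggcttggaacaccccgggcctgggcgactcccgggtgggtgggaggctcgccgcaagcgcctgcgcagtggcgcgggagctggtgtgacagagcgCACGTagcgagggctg
P4ha2: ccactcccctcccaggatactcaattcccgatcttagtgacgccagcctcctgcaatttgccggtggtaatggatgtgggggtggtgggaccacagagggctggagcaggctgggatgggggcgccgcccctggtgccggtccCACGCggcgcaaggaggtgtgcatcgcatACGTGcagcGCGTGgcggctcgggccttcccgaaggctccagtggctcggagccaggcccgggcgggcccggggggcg
Kdm3a: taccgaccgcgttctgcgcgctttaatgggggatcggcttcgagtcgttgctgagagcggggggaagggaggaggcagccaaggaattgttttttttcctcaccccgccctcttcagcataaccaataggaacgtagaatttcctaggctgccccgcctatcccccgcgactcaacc
The core stood 126 bases before the start of Egln1, with another match at 68 bases in the exon part left out, and 229 bases before that of Egln3. P4ha1 held it at 163, 126 and 16 bases and P4ha2 at 107, 78 and 69 bases. The run of Kdm3a held none, and the only match of its whole window, at 27 bases, lies in the exon part left out. Windows were found for 41 members and missing for 8. The core was in 29 of 51 member windows (56.9%) and in 12679 of all 32851 windows of 250 bases (38.6%), while CACGTG was in 3 member windows (5.88%) and in 6.02% of all windows.

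Egln2 was the most abundant of the HIF prolyl hydroxylases in all 7 libraries. Egln2 (ENSMUSG00000058709, chromosome 7, 27158658 to 27166802, minus strand, GRCm38) was at 61.4, 55.7 and 125 FPKM in controls and 71.7, 51.7, 60.7 and 68.6 FPKM in Fth1-deleted libraries. Control 3 stood above all others, and the rest of the groups overlapped. This gave a log2 difference of -0.27 (SE 0.28, limma adjusted p = 0.782). It made up 79.7% ± 3.38 (SD, n = 3) of the summed FPKM of the 3 Egln genes in controls and 81.8% ± 6.43 (SD, n = 4) in Fth1-deleted cells.

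Egln1, the main HIF prolyl hydroxylase in most tissues, had the largest difference of this family. Egln1 (ENSMUSG00000031987, chromosome 8, 124908587 to 124949324, minus strand) was at 14.0, 11.2 and 13.8 FPKM in controls and 15.7, 6.56, 4.48 and 5.83 FPKM in Fth1-deleted libraries. Fth1-deleted 1 was the highest of the 7, and the other 3 Fth1-deleted libraries were below every control. On the log2 scale the difference was -0.75 (SE 0.47, limma adjusted p = 0.640), and -1.09 with Fth1-deleted 1 left out (limma adjusted p = 0.682). With a term for the ribosomal RNA share it was -0.27.

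Egln3 was the most variable gene of the family, at 1.52, 6.09 and 11.7 FPKM in controls and 10.1, 0, 10.4 and 6.88 FPKM in Fth1-deleted libraries. The groups overlapped fully, with no read in Fth1-deleted 2 and 56 to 414 reads elsewhere, and the 95% interval of the log2 difference ran from -2.05 to 1.80. Hif1an, the asparaginyl hydroxylase, was at 35.03, 21.8 and 21.7 FPKM in controls and 12.5, 27.3, 33.5 and 19.8 FPKM in Fth1-deleted libraries. Its log2 difference was -0.21 (SE 0.37, limma adjusted p = 0.869). All 4 genes of the family had negative log2 differences, with a median of -0.24. Egln1 alone was negative in all 20 alternatives, while Egln3 turned positive in 5 (0.01 with quantile normalization), Hif1an in 3 and Egln2 in 2. Without control 3, 2 of the 4 were positive and the median was -0.11, and with the ribosomal RNA term 2 of the 4 were positive and it was -0.08.

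The TET enzymes oxidize methylcytosine in DNA, the first step of active demethylation. Tet3 was the main TET transcript in HSCs, with the largest share of the family in all 7 libraries, at 55.7% ± 9.16 (SD, n = 3) in controls and 59.8% ± 9.18 (SD, n = 4) in Fth1-deleted cells. Tet3 (ENSMUSG00000034832, chromosome 6, 83362373 to 83459084, minus strand) was at 40.3, 31.1 and 28.2 FPKM in controls and 31.6, 55.5, 32.1 and 25.7 FPKM in Fth1-deleted libraries. Fth1-deleted 2 was the highest and Fth1-deleted 4 the lowest. Its log2 difference came to 0.08, with a 95% interval from -0.59 to 0.74.

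Tet1 (ENSMUSG00000047146, chromosome 10, 62804570 to 62908996, minus strand) was at 16.6, 23.1 and 21.6 FPKM in controls and 15.8, 10.4, 26.0 and 13.3 FPKM in Fth1-deleted libraries. Of the Fth1-deleted libraries, 3 lay below every control and Fth1-deleted 3 above them all, for a log2 difference of -0.36 (SE 0.37, limma adjusted p = 0.767). Tet2 (ENSMUSG00000040943, chromosome 3, 133463679 to 133545139, minus strand), whose loss in humans drives clonal expansion of HSCs, was the least abundant of the family. It was at 4.59, 3.29 and 9.62 FPKM in controls and 6.65, 12.4, 7.98 and 2.96 FPKM in Fth1-deleted libraries, with Fth1-deleted cells holding both the highest and the lowest value. Its log2 difference was 0.29 (SE 0.57, limma adjusted p = 0.885), with a 95% interval from -0.95 to 1.53 that reaches past 2-fold upward. Summed over the family, TET RNA was 59.4 ± 2.00 FPKM (SD, n = 3) in controls and 60.1 ± 15.6 FPKM (SD, n = 4) in Fth1-deleted cells.

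**Figure D3:**
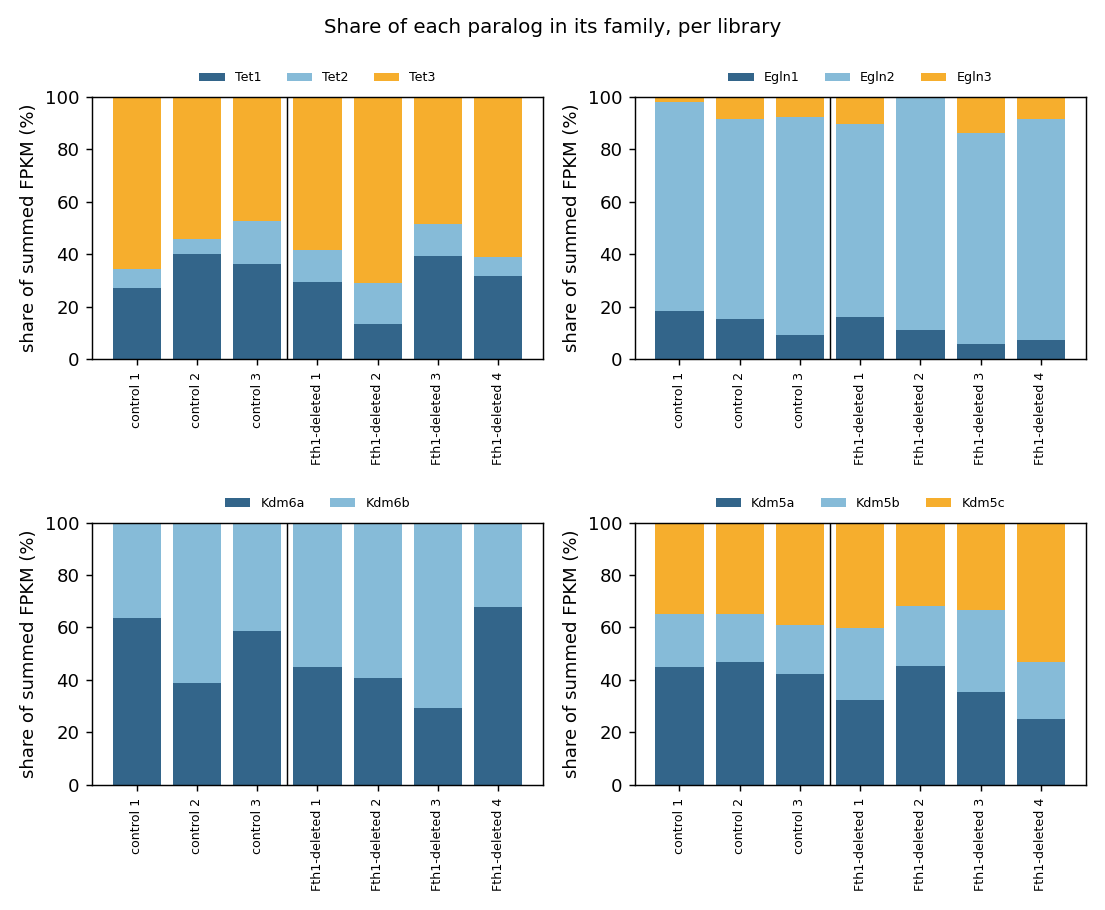
Share of each paralog in the summed FPKM of its family (vertical axis, percent) in each of the 7 libraries, with controls left of the vertical line, for the TET, EGLN, KDM6 and KDM5 genes. Tet3 and Egln2 hold the largest share in every bar of their panels, while the larger of Kdm6a and Kdm6b changes from library to library.

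JmjC histone demethylases were the largest family, with 16 genes, all tested. Log2 differences were negative for 14 of the 16, with a median of -0.16, and none passed the test. Without control 2, 9 were negative and 7 positive and the median was -0.05, and in the other alternatives with all 16 genes tested 11 to 14 were negative. The median was -0.26 with the Y term, -0.28 without control 3 and -0.59 with the ribosomal RNA term. Size factors turned Jmjd1c and Kdm5c positive, and quantile normalization Jmjd1c. The intervals of 11 of these 16 genes lay inside a 2-fold change, beside 6 of 9 in the AlkB family. Their summed level was 586 ± 64.4 FPKM (SD, n = 3) in controls and 526 ± 76.3 FPKM (SD, n = 4) in Fth1-deleted cells.

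Kdm5a, which removes methyl groups from the histone mark of active promoters, was one of the 2 members whose groups did not overlap. Kdm5a (ENSMUSG00000030180, chromosome 6, 120364124 to 120444574, plus strand) was at 54.4, 58.5 and 53.5 FPKM in controls and 34.2, 49.01, 50.2 and 27.1 FPKM in Fth1-deleted libraries. Controls lay close together, and the Fth1-deleted libraries spread from just under them to well below. Kdm5a had a log2 difference of -0.50 (SE 0.27, limma adjusted p = 0.584), and its paralog Kdm5b, at 23.6 ± 1.07 FPKM (SD, n = 3) and 30.4 ± 9.81 FPKM (SD, n = 4), had a positive one of 0.30 (SE 0.30). The X-linked Kdm5c was at 42.4, 43.7 and 49.2 FPKM in controls and 42.8, 34.4, 47.7 and 57.4 FPKM in Fth1-deleted libraries. Its Fth1-deleted values lay on both sides of the controls, with a log2 difference of -0.01 (SE 0.25). Kdm5a held the largest share of the 3 genes in 5 libraries, but with the longest transcript as the gene length Kdm5c did so in all 7, so the order of these genes depends on the length used.

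The CpG-island-binding demethylases Kdm2a and Kdm2b had differences of opposite sign, neither past the test. Kdm2a, the most abundant member at a mean of 89.2 FPKM, was at 98.0, 122 and 75.1 FPKM in controls and 67.2, 119, 89.5 and 53.4 FPKM in Fth1-deleted libraries, for a log2 difference of -0.29 (SE 0.28, limma adjusted p = 0.754). Kdm2b, which brings a variant Polycomb complex to CpG islands, was at 52.9, 41.7 and 50.7 FPKM in controls and 44.8, 61.1, 75.4 and 54.3 FPKM in Fth1-deleted libraries, for a log2 difference of 0.26 (SE 0.24, limma adjusted p = 0.743). The groups overlapped for both genes, and whether the 2 differences differ from each other was not tested. Kdm2a was above Kdm2b in 6 of 7 libraries, the exception being Fth1-deleted 4.

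Among the lysine demethylases of the KDM3 group, the textbook HIF target Kdm3a was at 34.2, 44.3 and 26.0 FPKM in controls and 42.3, 40.1, 28.5 and 24.9 FPKM in Fth1-deleted libraries. Jmjd1c, a partner of leukemia transcription factors, was at 29.2, 43.7 and 28.3 FPKM in controls and 25.8, 41.3, 43.9 and 25.2 FPKM in Fth1-deleted libraries. The groups overlapped for both genes, with log2 differences of -0.04 (SE 0.30) for Kdm3a and within 0.01 of 0 for Jmjd1c. Kdm3b had the largest share of the KDM3 group in all 7 libraries, at 55.6 ± 23.9 FPKM (SD, n = 3) and 47.3 ± 8.04 FPKM (SD, n = 4), but 24.6% of its exon bases lie opposite Gm26538, whose reads cannot be told apart there. The KDM4 genes, which act on heterochromatin and gene-body marks, had log2 differences of -0.24 (Kdm4a), -0.03 (Kdm4b) and -0.23 (Kdm4c). The PHD-finger demethylases Phf2, Phf8 and Kdm7a had log2 differences of -0.16, -0.07 and -0.57, with standard errors of 0.29, 0.38 and 0.61.

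Kdm6a and Kdm6b remove the Polycomb mark from histone H3, and Kdm6a showed the largest difference of the demethylases. Kdm6a (ENSMUSG00000037369, chromosome X, 18162575 to 18279936, plus strand) was at 46.3, 18.8 and 33.4 FPKM in controls and 12.4, 21.2, 12.2 and 22.8 FPKM in Fth1-deleted libraries. Control 2 lay among the Fth1-deleted libraries and the other controls above all of them. Kdm6a had a log2 difference of -0.87 (SE 0.38, limma adjusted p = 0.493). Kdm6b (ENSMUSG00000018476, chromosome 11, 69398508 to 69413675, minus strand) was at 26.6, 29.6 and 23.4 FPKM in controls and 15.3, 30.8, 29.1 and 10.8 FPKM in Fth1-deleted libraries. Here Fth1-deleted 1 and 4 lay below every control and the others within or just above them, for a log2 difference of -0.40 (SE 0.39, limma adjusted p = 0.748).

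Kdm6a is X-linked, escapes X inactivation and has the Y-linked counterpart Uty, so its level is set beside the Y-linked reads. Libraries without Y-linked reads had 46.3 and 33.4 FPKM (controls 1 and 3) and 22.8 FPKM (Fth1-deleted 4). Libraries with them had 18.8 FPKM (control 2) and 12.4, 21.2 and 12.2 FPKM (Fth1-deleted 1, 2 and 3). Every library without Y-linked reads was thus above every library with them, and Kdm6a exceeded Kdm6b only in the former 3. Uty was at 0, 21.5 and 0 FPKM in controls and 6.78, 12.2, 5.87 and 0 FPKM in Fth1-deleted libraries. With a term for Y-linked reads the log2 difference of Kdm6a was -0.53 (SE 0.36, limma adjusted p = 0.580), and without control 2 it was -1.21. With a term for the ribosomal RNA share it was 0.11 (limma adjusted p = 0.965). Control 2, at 1.09%, was the control nearest to the Fth1-deleted libraries in that share. Share and genotype can hardly be told apart in this fit. Kdm6a and Uty together came to 40.0 ± 6.48 FPKM (SD, n = 3) in controls and 23.3 ± 6.99 FPKM (SD, n = 4) in Fth1-deleted libraries, with Fth1-deleted 2 level with control 3.

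For Kdm5c the same split showed no separation. Libraries without Y-linked reads had 42.4 to 57.4 FPKM and libraries with them 34.4 to 47.7 FPKM. Its Y-linked counterpart Kdm5d was at 0, 11.9 and 0 FPKM in controls and 9.001, 13.5, 12.6 and 0 FPKM in Fth1-deleted libraries, so it followed the same libraries as Uty. With the Y term the log2 difference of Kdm5c was 0.11 (SE 0.26, limma adjusted p = 0.894). Control 2 and Fth1-deleted 1 had 323 and 291 reads of Xist, the RNA of the inactive X chromosome, beside their Y-linked reads, and the libraries without Y-linked reads had 4881 to 18722.

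**Figure D4:**
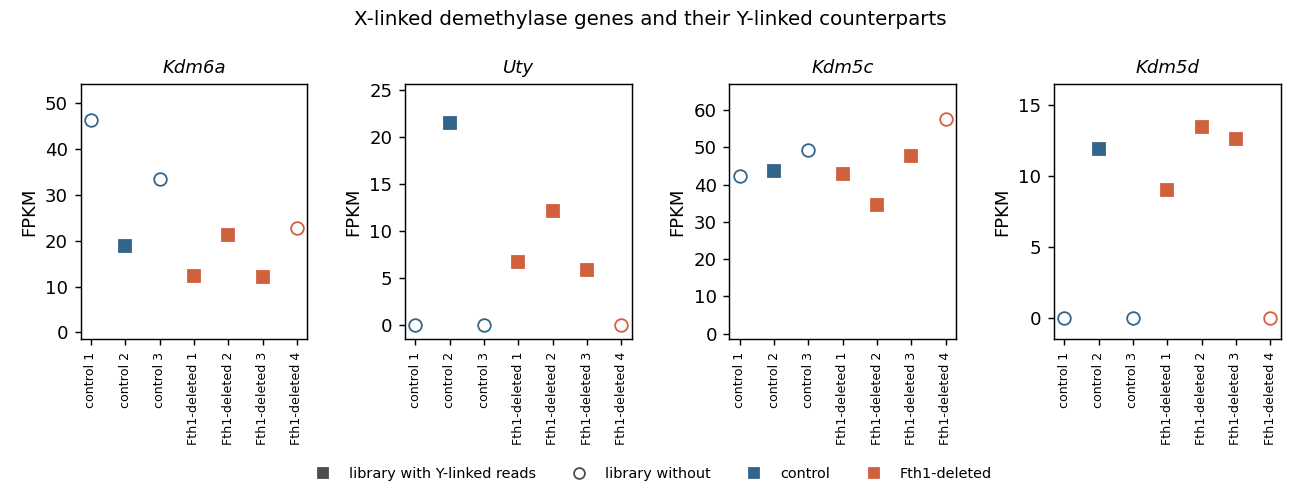
FPKM (vertical axes) of the X-linked Kdm6a and Kdm5c and their Y-linked counterparts Uty and Kdm5d in each of the 7 libraries, with filled squares for libraries with Y-linked reads, open circles for those without, and colour for the group. The open circles of Kdm6a, at 22.8 to 46.3 FPKM, all lie above its squares, at 12.2 to 21.2 FPKM.

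The other JmjC proteins include hydroxylases of ribosomal, splicing and translation factors, and 6 of the 7 were tested. Riox2, a histidyl hydroxylase of a ribosomal protein, had the largest difference, at 16.7, 32.9 and 48.9 FPKM in controls and 15.4, 13.2, 20.1 and 26.9 FPKM in Fth1-deleted libraries. Control 1 lay among the Fth1-deleted libraries, with a log2 difference of -0.69 (SE 0.40, limma adjusted p = 0.614). Of its exon bases, 22.4% lie opposite Crybg3, and with no strand setting known for the read counting, reads of the 2 genes cannot be told apart there. Jmjd6, a lysyl hydroxylase of splicing factors, was at 36.5 ± 4.70 FPKM (SD, n = 3) and 31.6 ± 4.01 FPKM (SD, n = 4), the only gene of this set whose interval lay inside a 2-fold change. Riox1, Kdm8, Jmjd4 and Jmjd8 had log2 differences of 0.22, 0.47, -0.06 and -0.40, with standard errors of 0.46 to 0.58. Exon bases lie opposite another gene for 31.9% of Riox1 and 39.3% of Jmjd8.

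The AlkB family was split by role. The m6A erasers Alkbh5 and Fto, which remove methyl groups from adenines of RNA, were abundant, and both intervals lay inside a 2-fold change. Alkbh5 (ENSMUSG00000042650, chromosome 11, 60536381 to 60558512, plus strand) was at 51.3, 52.6 and 55.1 FPKM in controls and 35.7, 52.2, 58.7 and 46.0 FPKM in Fth1-deleted libraries, which lay on both sides of the controls. Its log2 difference was -0.16 (95% interval -0.68 to 0.36). Fto (ENSMUSG00000055932, chromosome 8, 91313525 to 91668439, plus strand) was at 35.9, 24.4 and 46.8 FPKM in controls and 38.3, 35.4, 41.1 and 41.4 FPKM in Fth1-deleted libraries, all of which fell within the control range. Its log2 difference was 0.17 (95% interval -0.42 to 0.76). Alkbh5 was above Fto in 6 of 7 libraries, the exception being Fth1-deleted 1.

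The DNA repair members Alkbh2 and Alkbh3, which strip alkyl groups from damaged bases, had the most negative differences of all 47 tested members. Alkbh3 (ENSMUSG00000040174, chromosome 2, 93980550 to 94010807, minus strand) was at 20.4, 42.2 and 48.0 FPKM in controls and 13.3, 27.2, 4.16 and 20.1 FPKM in Fth1-deleted libraries. Only Fth1-deleted 2 exceeded the lowest control. For Alkbh3 the difference was -1.30 on the log2 scale (SE 0.54, limma adjusted p = 0.466), and -0.80 without Fth1-deleted 3. Alkbh2 (ENSMUSG00000044339, chromosome 5, 114123926 to 114128218, minus strand) was at 7.79, 18.1 and 5.06 FPKM in controls and 5.19, 3.92, 3.08 and 1.2 FPKM in Fth1-deleted libraries. Fth1-deleted 1 was just above control 3 and the other 3 were below it, on 14 to 214 reads per library. For Alkbh2 it was -1.31 (SE 0.60, limma adjusted p = 0.506), and -0.84 without control 2, the highest library. Of the exon bases of Alkbh2, 29.5% lie opposite Usp30.

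The remaining AlkB genes have other substrates, among them transfer RNA for Alkbh1 and Alkbh8. Alkbh1, Alkbh4, Alkbh6, Alkbh7 and Alkbh8 had log2 differences of 0.08, 0.12, -0.20, 0.41 and 0.05, none past the test. Alkbh8, which modifies wobble uridines of transfer RNA, was the most even gene in controls, at 13.3 to 13.9 FPKM, and ran from 11.5 to 20.8 FPKM in Fth1-deleted libraries. Across the family 5 genes were positive and 4 negative, with a median of 0.05. Among the alternatives this median changed sign, from -0.25 with the ribosomal RNA term (2 positive, 7 negative) to 0.10 with quantile normalization.

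The collagen-type and related hydroxylases include enzymes that act in the secretory pathway or on ribosomal proteins. P4ha1, a catalytic subunit of collagen prolyl hydroxylase and one of the HIF targets whose promoters are given above, was at 8.18, 16.9 and 5.91 FPKM in controls and 11.9, 19.0, 20.4 and 6.74 FPKM in Fth1-deleted libraries. The groups overlapped, with a log2 difference of 0.47 (SE 0.49, limma adjusted p = 0.777). P4ha2, its paralog, had no read in any control library and 53, 0, 27 and 10 reads in Fth1-deleted 1 to 4, or 2.93, 0, 1.80 and 0.577 FPKM. Its mean was thus at least 7.01-fold higher than the level that 3 reads per library would give in controls, a bound that covers counting error only, and Fth1-deleted 2 was at 0 like the controls. Tested without the filter, its limma adjusted p was 0.660.

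Plod3, a lysyl hydroxylase that also adds sugars to collagen, was at 10.6, 23.6 and 25.3 FPKM in controls and 28.2, 20.4, 44.9 and 19.6 FPKM in Fth1-deleted libraries. Its groups overlapped, with a log2 difference of 0.50 (SE 0.40, limma adjusted p = 0.707). For Plod3, 11.7% of exon bases lie opposite another gene. Plod1, Plod2, P4htm and Asph, the last of which hydroxylates EGF-like domains, had log2 differences of -0.27, -0.09, -0.52 and 0.08 with standard errors of 0.30 to 0.59.

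The 3 Ogfod genes included the member nearest to the threshold. Ogfod2 (ENSMUSG00000023707, chromosome 5, 124112297 to 124115483, plus strand) was at 33.0, 13.7 and 12.8 FPKM in controls and 38.3, 39.5, 24.1 and 55.8 FPKM in Fth1-deleted libraries. Control 1 lay above Fth1-deleted 3, and the other Fth1-deleted libraries were above every control. Ogfod2 thus had a log2 difference of 1.03 (SE 0.39, limma adjusted p = 0.435), and 1.45 without control 1 (limma adjusted p = 0.202). Ogfod1, a prolyl hydroxylase of a small-subunit ribosomal protein, was at 18.8, 18.3 and 22.6 FPKM in controls and 17.5, 16.6, 16.6 and 15.04 FPKM in Fth1-deleted libraries. All 4 Fth1-deleted values were just below the controls, for a log2 difference of -0.26 (SE 0.31, limma adjusted p = 0.802). Ogfod3 was at 8.32, 17.0 and 21.2 FPKM in controls and 10.6, 6.85, 11.2 and 7.08 FPKM in Fth1-deleted libraries, where control 1 lay among the Fth1-deleted libraries. Its log2 difference was -0.67 (SE 0.44, limma adjusted p = 0.650), and 17.0% of its exon bases lie opposite Hexdc.

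Levels may be compared between genes only per length, and the length used matters here. On the deposited scale Kdm2a, Egln2, Kdm2b, Kdm3b and Alkbh5 were the 5 most abundant members. With the longest transcript of each gene as its length, a choice made after seeing the data, Egln2 came first, followed by Alkbh5, Kdm3b, Kdm2a and Kdm4a. The 2 orders had a Spearman correlation of 0.850 over the 47 tested members. Tet3 and Egln2 kept the largest share of their families in all 7 libraries either way.

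Genes that work with these enzymes were described from 9 lists holding 138 genes, of which 123 were tested, and none of the 123 passed the test (0.0574% of all genes did). Among HIF subunits and the VHL ligase, 9 of 10 were tested, with 5 positive and a median log2 difference of 0.32. Hif3a had the smallest p of these, at 13.3 ± 5.77 FPKM (SD, n = 3) and 6.91 ± 3.61 FPKM (SD, n = 4), followed by Arnt, at 19.8 ± 7.11 and 28.4 ± 6.97 FPKM (limma adjusted p = 0.608 and 0.647). Hif1a itself, the oxygen-regulated subunit, was at 16.0 to 17.0 FPKM in controls and 12.8 to 16.3 FPKM in Fth1-deleted libraries.

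HIF target genes numbered 21 of 22 tested, with 9 positive and a median of -0.04. Within them 3 glycolytic genes had all Fth1-deleted libraries above all controls (beside 4.1% of all genes). The same held for 3 of 21 genes in the list of histone methyltransferases, their partners and LSD-type demethylases. It also held for 2 of 14 m6A genes, 2 of 10 DNA methylation partners and 1 of 22 oxoglutarate enzymes. All Fth1-deleted libraries lay below all controls for 2 of those 21 genes, 1 of the 14 and 1 of 10 collagen and partner genes (beside 5.55% of all genes). Of the 4 HIF targets with an unadjusted p under 0.05, Ndrg1 was lower in Fth1-deleted cells, at 119 ± 28.2 FPKM (SD, n = 3) and 75.9 ± 31.7 FPKM (SD, n = 4) (log2 difference -0.70, limma adjusted p = 0.489). Hk2, hexokinase, was at 14.2 ± 3.05 FPKM (SD, n = 3) in controls, 17.1 FPKM at most, and at 18.4, 43.3, 33.2 and 43.9 FPKM in Fth1-deleted libraries (log2 difference 1.18, SE 0.36, limma adjusted p = 0.339). Aldoa, aldolase, was at 307 ± 20.1 FPKM (SD, n = 3) and 450 ± 67.2 FPKM (SD, n = 4), with the same adjusted p. Pgk1, phosphoglycerate kinase, was at 185 ± 25.6 and 266 ± 36.0 FPKM (limma adjusted p = 0.398).

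Enzymes that make or use oxoglutarate, succinate, fumarate and 2-hydroxyglutarate, the cosubstrate, product and inhibitors of the class, were all tested. Of the 22, 16 were positive, with a median of 0.22, the highest share of positive genes among the 9 lists. The isocitrate dehydrogenase genes Idh3a and Idh2, whose enzymes make oxoglutarate in mitochondria, had log2 differences of 0.72 and 0.39 (limma adjusted p = 0.462 and 0.472). Idh1, their cytosolic relative, had 1.54 (SE 0.65, limma adjusted p = 0.477), with control 2 at 1.71 FPKM and the others at 18.2 to 46.9 FPKM. Of the iron chaperones and ascorbate transport genes, 8 of 9 were tested and 5 were positive, with a median of 0.15. The iron chaperones Pcbp4 and Pcbp1 had the smallest p there, with log2 differences of 1.79 (SE 0.93) and 0.23 (SE 0.20). Pcbp4 was at 33.9, 0 and 17.5 FPKM in controls and 19.9 to 44.9 FPKM in Fth1-deleted libraries, with control 1 among them, and its difference was as low as 0.23 among the alternatives.

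DNA methylation partners of the TET enzymes had 7 of 10 positive and a median of 0.22. Uhrf1, which guides maintenance methylation, was at 122, 78.1 and 76.3 FPKM in controls and 139, 151, 146 and 149 FPKM in Fth1-deleted libraries, all 4 above every control (log2 difference 0.69, SE 0.20, limma adjusted p = 0.309). Dnmt3b, a methyltransferase that sets new marks, was at 28.9 ± 7.11 and 42.6 ± 2.82 FPKM (limma adjusted p = 0.501). Histone methyltransferases and LSD-type demethylases had 11 of 21 positive and a median of 0.01, with Suv39h1 at a log2 difference of 0.79 and Kdm1a at 0.53 (limma adjusted p = 0.435 and 0.444). Writers and readers of m6A had 8 of 14 positive and a median of 0.13. The reader Igf2bp2 was at 8.06, 13.2 and 8.15 FPKM in controls and 3.28, 2.16, 1.27 and 2.497 FPKM in Fth1-deleted libraries, all 4 below every control (log2 difference -1.72, SE 0.53, limma adjusted p = 0.339), and the writer subunit Wtap had a log2 difference of 0.41.

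The remaining lists held relatives of the members and partners of the collagen enzymes. Other oxoglutarate dioxygenases had 8 of 16 tested, 4 of them positive, with a median of -0.12, led by the prolyl hydroxylase P3h3 at 91.0 ± 36.5 and 60.7 ± 11.6 FPKM and the Y-linked Kdm5d. Collagens and partners of their hydroxylases had 10 of 12 tested, 4 of them positive, with a median of -0.05. The collagen chaperone Serpinh1 had a log2 difference of -1.80 (SE 0.76) and Col1a2 one of -1.43 (SE 0.69), neither past the test. The smallest limma adjusted p of this list was 0.478. Col1a1, of the same list, was at 0 FPKM in controls and 0, 3.34, 1.97 and 1.97 FPKM in Fth1-deleted 1 to 4.

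**Figure D5:**
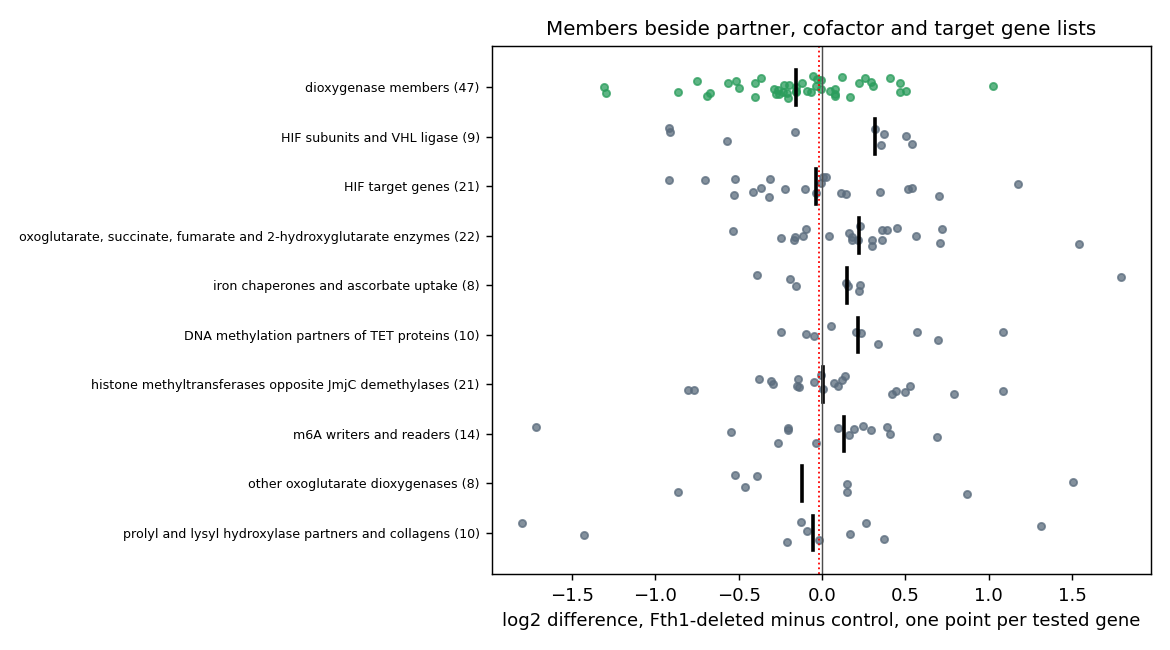
Log2 differences (Fth1-deleted minus control, horizontal axis, log2(FPKM + 1) scale) of the 47 tested members and of the tested genes of 9 partner, cofactor and target lists, 1 point per gene, with black bars at each median and a dotted line at the median of all tested genes, -0.02. The members' bar lies at -0.16, and the lists' bars lie between -0.12 and 0.32.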

How the data were processed

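RNA from 7 libraries (3 control, 4 Fth1-deleted) was measured by paired-end sequencing of polyA RNA. Per the submitters' processing notes and the series text, reads were aligned to GRCm38 with HISAT2 2.0.4 and counted per gene with HTSeq 0.9.1, and the deposited values are FPKM that the authors computed from read counts and gene length. The annotation release, the strand setting and any filter are not given in the sources used here. Of 55855 identifiers, 55480 matched GENCODE M21 and 282 were the authors' own. The product of FPKM and mean transcript length gave whole reads for 98.9% to 99.5% of values worth fewer than 50 reads, within 0.05 reads, which gave the depths. Floors are 3 reads per library.

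Values were analysed as log2(FPKM + 1). Genes with a mean of at least 1 FPKM were tested with limma 3.58.1 (limma-trend, R 4.3.3, two-sided, no covariate) with Benjamini-Hochberg adjustment over all 13948 genes, and single library measures with an exact permutation test. The code was tested on simulated data. Deviations of same-numbered libraries from their group means had correlations of 0.0090, 0.0609 and -0.0370 over genes. Other pairs of libraries ran from -0.0897 to 0.0800. With 3 and 4 libraries these values cannot decide whether the numbers pair them, and no pairing is stated. Promoter windows came from RefSeq tables, and exon overlaps from bedtools 2.31.1 on GENCODE M21. The alternatives were other pseudocounts, filters, scalings, weights and model terms, a block for the replicate number, leaving out each library, limma-voom on the recovered reads, and, chosen after seeing the data, the longest transcript as gene length.

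The members, lists and tests were chosen with earlier results of these data known. Values in every library are given for members past the threshold or without overlap, the 12 with the smallest p, and 16 fixed members. From each list the genes past the threshold and the 2 with the smallest p are named. Hif1a, Pgk1, Idh1, Ndrg1 and Col1a1 are named outside this rule and were chosen after their values were seen. One gene of the HSC marker list is not reported here and was left out of its sum.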

Additional observations from a re-analysis of the deposited data

Results flagged for a closer look

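Kdm7a, a PHD-finger histone demethylase gene, was at 6.14 FPKM in Fth1-deleted 3 and at 1.56 to 1.95 FPKM in the other 3 Fth1-deleted libraries. It is listed because this gap took up 0.914 of the range of the 4 libraries, above the 95% limit of Dixon's test for a single library far from the others. The controls were at 3.00, 4.86 and 5.19 FPKM. The 49 genes were each looked at in this way in the Fth1-deleted group and 1 met the limit, while chance alone flags about 1 in 20 groups.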

How the results depend on the processing

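No member and no gene of the 9 lists passed the threshold under any of the 20 alternatives run. The members' median log2 difference stayed negative in all of them, between -0.27 with a term for the ribosomal RNA share and -0.07 without control 2, and between -0.18 and -0.07 when 1 library was left out. The number of all genes past the threshold, 8 as reported, was 0 with no filter on low values (1504 of 19119 at an unadjusted p under 0.05), 17 for limma without a trend, 17 with the Y term, 2 with the ribosomal RNA term and 5 with limma-voom on recovered reads (0.05 threshold, limma in each case). Leaving out 1 library gave 0 to 19, with 19 without control 1, 13 without control 2, 0 without control 3 (1335 unadjusted) and 1 without Fth1-deleted 3. With the replicate number as a block, limma called 0 of all genes (987 unadjusted) and 0 members, whose median was -0.12, and no pairing is stated. The cause was not tested. The sign of a member's difference changed for 13 members with the ribosomal RNA term and for 8 or fewer in each other alternative. In every alternative that tested them 21 members kept their sign, which for Kdm7a were 19 of the 20. Exon bases are shared with another gene for 23 members, over 10% of them for 10, and 9 members have under 100 reads in some library.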
